A study of Mus musculus with 15 samples.

Results

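The 7 genes Srebf2, Insig1, Hmgcs1, Idi1, Fdft1, Sqle and Lss, which control or carry out cholesterol synthesis, were examined for histone marks in BMDMs, macrophages grown from mouse bone marrow. They were chosen by name, with earlier results of these data known, and are 7 of 21911 protein-coding genes of the mouse annotation. For each gene, the window was its body plus 5 kb upstream of its start, and the value per library was the percent of that window covered by called regions (window coverage). The regions came from CUT & RUN, which sequences the DNA that an antibody-tethered nuclease cuts loose around a target on chromatin. The targets were HA-tagged histone H3.3, H3 acetylated at lysine 27 (H3K27ac), a mark of active promoters and enhancers, and H3 trimethylated at lysine 36 (H3K36me3), a mark laid down along transcribed gene bodies. WT cells carried floxed H3f3a and H3f3b alleles, the genes that encode H3.3, and no Cre. The H3.3cKO cells (cKO) carried the same floxed alleles and LysM-Cre, which is expressed from the Lyz2 locus and deletes both genes in myeloid cells. The paper reports that deletion of H3f3b appeared to vary between cKO samples, from partial to complete. Its extent in the libraries used here is not given. The paper also associated H3K27ac regions lost in cKO with a response to sterol, and lost H3K36me3 regions with cholesterol metabolism. The counts below are therefore not independent of that result. H3.3-HA cells came from knock-in mice that express HA-tagged H3.3 from H3f3b. Bone marrow of young adult mice of both sexes was cultured for 6 to 8 days in medium with L929-conditioned supernatant, with no further treatment in any group. Each group held 2 libraries labelled as biological replicates, 10 in all, and the 5 IgG control samples served only as the background for region calling.

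Cells make cholesterol from acetyl-CoA through mevalonate, squalene and lanosterol. The genes of this route are switched on together by SREBP2, the product of Srebf2, which is held in the endoplasmic reticulum by SCAP and INSIG proteins while sterols are plentiful and is cut free to enter the nucleus when they run low. SREBP2 also raises uptake of lipoproteins, and macrophages, which take up much cholesterol, balance both against efflux. None of the 7 genes itself encodes a receptor or transporter. Srebf2 and Insig1 act on synthesis and uptake alike, and the other 5 are enzymes of synthesis.

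The libraries held between 5.37e+06 and 3.00e+07 tags. The lists give positions only, with no height per region, so a region called in a single genotype may differ little in signal, and a smaller share of cells with a mark cannot be told apart from less of the mark per cell. The H3K36me3 regions of cKO replicate 1 covered 90.7 Mb and held 19.3% of its tags, against 163 to 170 Mb and 46.5 to 50.2% in the other 3 libraries of that mark, and the H3K36me3 difference of each of the 7 genes is therefore also given without it. The H3K27ac regions covered 46.2 and 62.0 Mb in cKO, the lower value in replicate 1, against 89.6 and 74.8 Mb in WT. WT and cKO regions were called against separate IgG controls, and a difference between the controls cannot be told apart from one between the genotypes. The macrophage label held: 7 of 7 macrophage markers carried an H3K27ac region in both WT and both cKO libraries, whereas 0 of 4 T cell and 0 of 4 fibroblast markers did in any. Of the B cell markers 1 of 4, and of the neutrophil granule genes 2 of 4, carried one in both libraries of each genotype. The 7 macrophage markers together had a summed H3K27ac coverage of 261 to 311 in WT and 215 to 228 in cKO, and a summed H3K36me3 coverage of 334 to 359 and 417 to 496 percentage points, the latter opposite in direction to the genes described here. The H3K27ac sums differed mainly through Lyz2, the locus that carries the Cre in cKO, which had 94.2% and 88.4% in WT and 28.1% and 24.4% in cKO. Without it, the other 6 markers summed to 172 to 217 in WT and 187 to 203 in cKO, and to 301 to 326 and 368 to 426 for H3K36me3. The part of these values in the results was not tested.

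The promoters of Hmgcs1, Srebf2 and Insig1 are shown because the H3K27ac regions described below differ in how they cover them. They are the RefSeq sequences (GRCm38.p6, plus strand) of up to 250 bases before the RefSeq start, ending at the gene start of GENCODE where that lies earlier. Capitals mark the sterol regulatory element letters TCACNCCA (N is any base, extended to TCACNCCAC where present), the kind of site that SREBPs bind, and CCAAT or its complement ATTGG, the box bound by NF-Y.
Hmgcs1, chr13:119690101-119690350: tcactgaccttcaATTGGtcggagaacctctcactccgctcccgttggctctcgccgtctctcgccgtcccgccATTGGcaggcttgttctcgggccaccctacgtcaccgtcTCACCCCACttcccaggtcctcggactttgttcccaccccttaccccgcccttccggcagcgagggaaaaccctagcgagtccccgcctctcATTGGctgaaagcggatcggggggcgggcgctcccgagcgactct
Srebf2, chr15:82147019-82147180: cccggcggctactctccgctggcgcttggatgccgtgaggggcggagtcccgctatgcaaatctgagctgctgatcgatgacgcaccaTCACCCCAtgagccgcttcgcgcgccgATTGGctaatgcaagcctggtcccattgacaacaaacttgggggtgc
Insig1, chr5:28071162-28071362: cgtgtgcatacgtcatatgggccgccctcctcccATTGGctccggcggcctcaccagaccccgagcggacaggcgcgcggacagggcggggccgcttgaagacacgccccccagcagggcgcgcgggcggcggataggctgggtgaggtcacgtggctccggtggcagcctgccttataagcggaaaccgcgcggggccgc

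Of the 7 genes, 5 had an entry in the promoter table, all but Fdft1 and Sqle. Both strands of the 250 bases before the start were searched. The longer element TCACNCCAC was found in Hmgcs1 alone, 137 bases before the start, and in 1.05% of all 32851 promoters. The shorter TCACNCCA, which lies within it, was found in Hmgcs1 and, 162 bases before the start, in Srebf2, and in 3.67% of all promoters. CCAAT was present in 5 of 5 and in 33.8% of all promoters, and the GC box GGGCGG in 5 of 5 and in 32.7%. A match describes the letters and was not tested as a binding site.

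H3K27ac coverage was lower in both cKO libraries than in both WT libraries at all 7 genes, where 38.2% of the 12747 genes with an H3K27ac region in any of the 4 libraries were lower in this way and 17.4% were higher. Among the 6220 genes whose mean coverage was at least that of the lowest of the 7, 44% were lower. With coverage expressed relative to each library's mean over the windows of the genes tested, the 7 genes stayed lower in both cKO libraries. The shares over all genes became 33.7% lower and 25.1% higher. This scaling evens out that mean and not the total covered length, and it restores no region that was left uncalled. The median difference over the 7 genes was -17.2 percentage points, from a median of 30.5% in WT to 8.10% in cKO, against -1.01 over all genes tested. All genes tested had a lower WT median, 7.98%, which limits how far coverage can fall. Over the 6220 genes the WT median was 18.7% and the median difference -3.62. With 2 libraries against 2, the two-sided exact permutation test cannot give a p below 0.333, the value that each of the 7 genes reached.

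**Figure D1:**
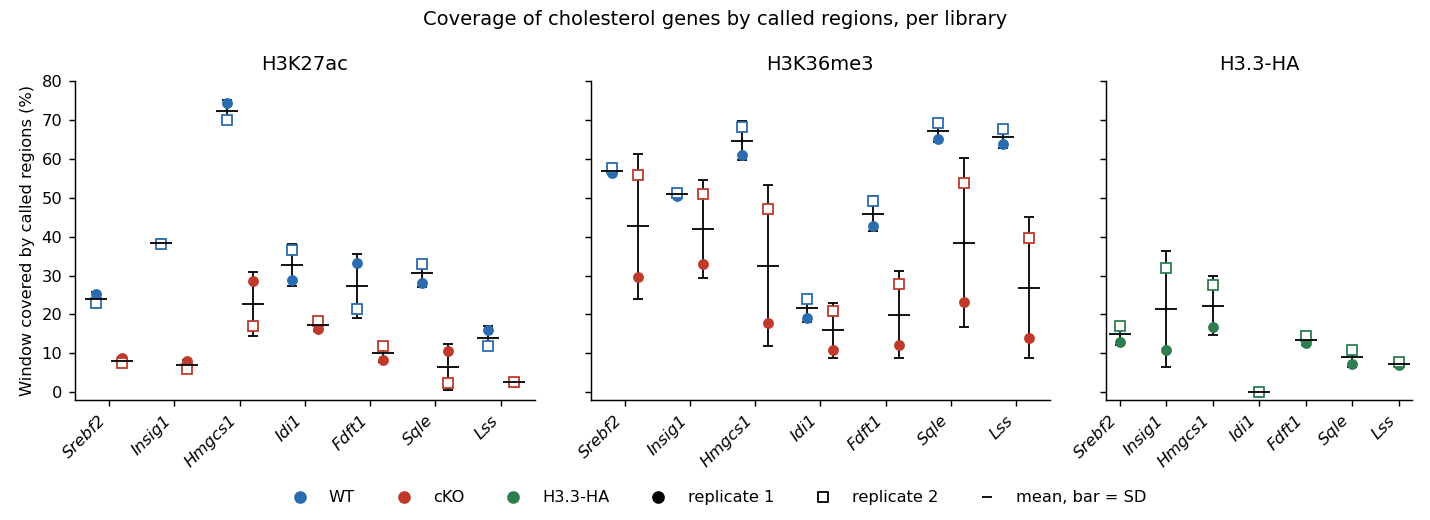
Window coverage (percent of gene body plus 5 kb upstream under called regions) of the 7 genes for H3K27ac and H3K36me3 in WT (blue) and cKO (red) and for H3.3-HA (green). Filled circles are replicate 1, open squares replicate 2, and black marks the mean with SD of 2 libraries. H3K27ac values of WT lie above those of cKO at all 7 genes, whereas for H3K36me3 the cKO libraries lie far apart, replicate 1 below replicate 2 at each gene.

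Srebf2 encodes the transcription factor of the pathway and lies on chromosome 15 (82147181 to 82205379, mm10, plus strand). Its window was covered by H3K27ac regions at 25.4% and 22.8% in WT and at 8.75% and 7.44% in cKO. The means were 24.1% ± 1.79 and 8.10% ± 0.928 (SD, n = 2 each), 66.4% lower in cKO. WT and cKO values did not overlap, and the spread within each genotype was small beside the difference of -16.0 percentage points. A promoter region was called in all 4 libraries, yet it covered the annotated start in WT replicate 2 and in both cKO libraries only; in WT replicate 1 it ended at -309 (bases from the start), upstream of the sequence shown above. The shortfall in cKO lay on both sides of the start. The 5 kb upstream were covered at 29.4% and 46.7% in WT and at 13.4% and 23.7% in cKO, and the first of 3 equal parts of the body at 63.1% and 62.3% in WT and at 19.2% and 18.1% in cKO. WT libraries held a region of 5035 and 4739 bp at their widest, which began at 13810 and 13827, and over the same stretch cKO replicate 1 had none and cKO replicate 2 had a narrow region near its far end. Of the bases covered in both WT libraries, cKO replicate 1 kept 25.9% and replicate 2 kept 31.2%.

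Insig1 encodes the protein that retains the SREBP2 precursor in the endoplasmic reticulum, and is itself a target of SREBP2. It lies on chromosome 5 (28071363 to 28078662, plus strand). H3K27ac coverage was 38.4% and 38.2% in WT and 7.92% and 5.89% in cKO, with means of 38.3% ± 0.190 and 6.91% ± 1.43 (SD, n = 2 each), 82.0% lower. No other of the 7 genes had WT libraries that agreed so closely. The positions differed as well as the amount. In WT, regions lay on either side of the start, from -2040 to -234 and from 925 to 2650 in replicate 1 and from -1957 to -260 and from 796 to 1930 in replicate 2 (bases from the start), which left the promoter shown above uncovered. Each cKO library held a single region, from -14 to 959 and from 25 to 749, almost wholly in the part of this gap after the start. That of replicate 1 ran into the beginning of the WT regions after the start. The promoter shown above was covered at 6.97% and 0% in cKO, so it stayed largely uncovered in all 4 libraries. Of the 3656 bases covered in both WT libraries, cKO replicate 1 kept 0.957% and cKO replicate 2 kept 0%. Across all genes, an H3K27ac region covered the annotated start in 14.5% of genes in each WT library and in 24.9% and 33.5% in cKO, so a covered start was more frequent in cKO over the whole annotation.

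Hmgcs1 encodes cytosolic HMG-CoA synthase, which makes the HMG-CoA that is reduced to mevalonate, and lies on chromosome 13 (119690379 to 119708260, plus strand). Its H3K27ac coverage was 74.3% and 70.1% in WT and 28.6% and 16.9% in cKO. The means were 72.2% ± 2.98 and 22.8% ± 8.27 (SD, n = 2 each), a difference of -49.4 percentage points, and 7 of the 12747 genes tested, Hmgcs1 included, had a difference this low or lower. The share of genes as low or lower was 0.675% for Insig1, 2.09% for Sqle and 5.37% for Fdft1. For Srebf2, Idi1 and Lss it was 6.22%, 6.84% and 11.8%. The start and the promoter shown above were covered in all 4 libraries. In WT replicate 1 the region around the start ran from -1702 to 8416, and in WT replicate 2 from -1480 to 5348. In cKO it ran from -460 to 3860 and from -326 to 2176. In cKO the region around the start was thus shorter, and the rest of the gene held 2 further regions in each cKO library, of 1214 bp or less.

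Idi1 encodes isopentenyl diphosphate isomerase, which interconverts the 5-carbon building blocks of squalene, and lies on chromosome 13 (8885501 to 8892451, plus strand). H3K27ac coverage was 28.9% and 36.5% in WT and 16.2% and 18.4% in cKO, with means of 32.7% ± 5.37 and 17.3% ± 1.55 (SD, n = 2 each). It was 47.0% lower in cKO, the smallest relative difference of the 7 genes. A region over the start was present in WT replicate 2 and both cKO libraries, while in WT replicate 1 regions ended at -229 and resumed at 357, as at Insig1.

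Fdft1 encodes squalene synthase, the enzyme that joins a pair of farnesyl groups and commits the route to sterols. It lies on chromosome 14 (63145150 to 63179578, minus strand), and its 3′ end overlaps that of Ctsb, the gene of the lysosomal protease cathepsin B, by 774 bp. H3K27ac coverage was 33.2% and 21.5% in WT and 8.40% and 11.9% in cKO, with means of 27.3% ± 8.26 and 10.1% ± 2.47 (SD, n = 2 each). The difference of -17.2 percentage points became -11.3 without WT replicate 1 and -23.0 without WT replicate 2. The WT libraries lay further apart here than at any other of the 7 genes, and much of the coverage came from regions at the 3′ end, where the 2 genes cannot be told apart. A region between 1980 and 4135 bases after the start was called in both WT libraries and in neither cKO library.

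Sqle encodes squalene epoxidase, a rate-limiting oxygenase of the route, and lies on chromosome 15 (59315077 to 59331192, plus strand). H3K27ac coverage was 28.1% and 33.0% in WT and 10.7% and 2.37% in cKO, with means of 30.5% ± 3.43 and 6.53% ± 5.88 (SD, n = 2 each), 78.6% lower. The cKO libraries disagreed on what was left. Replicate 1 kept 50.8% of the bases covered in both WT libraries, in regions from 669 to 2081 and from 5132 to 5976, and replicate 2 kept 0.0910%, with a single region from 12977 to 13477. The region upstream of the start, between -1353 and -304, was called in both WT libraries and in neither cKO library.

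Lss encodes lanosterol synthase, which closes the sterol rings, and lies on chromosome 10 (76531588 to 76557138, plus strand). H3K27ac coverage was 16.1% and 11.8% in WT and 2.74% and 2.52% in cKO, with means of 14.0% ± 2.997 and 2.63% ± 0.160 (SD, n = 2 each), 81.1% lower. It had the lowest coverage of the 7 genes in each of the genotypes except for Sqle in cKO replicate 2. WT replicate 1 held 7 regions and WT replicate 2 held 5, against 1 in each cKO library, near the middle of the gene. The region just after the start, from 5 to 932 at its widest, was present in both WT libraries and in neither cKO library. With only regions of at least 1 kb counted, Lss was the gene at which WT and cKO overlapped, since most of its regions were narrower.

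**Figure D2:**
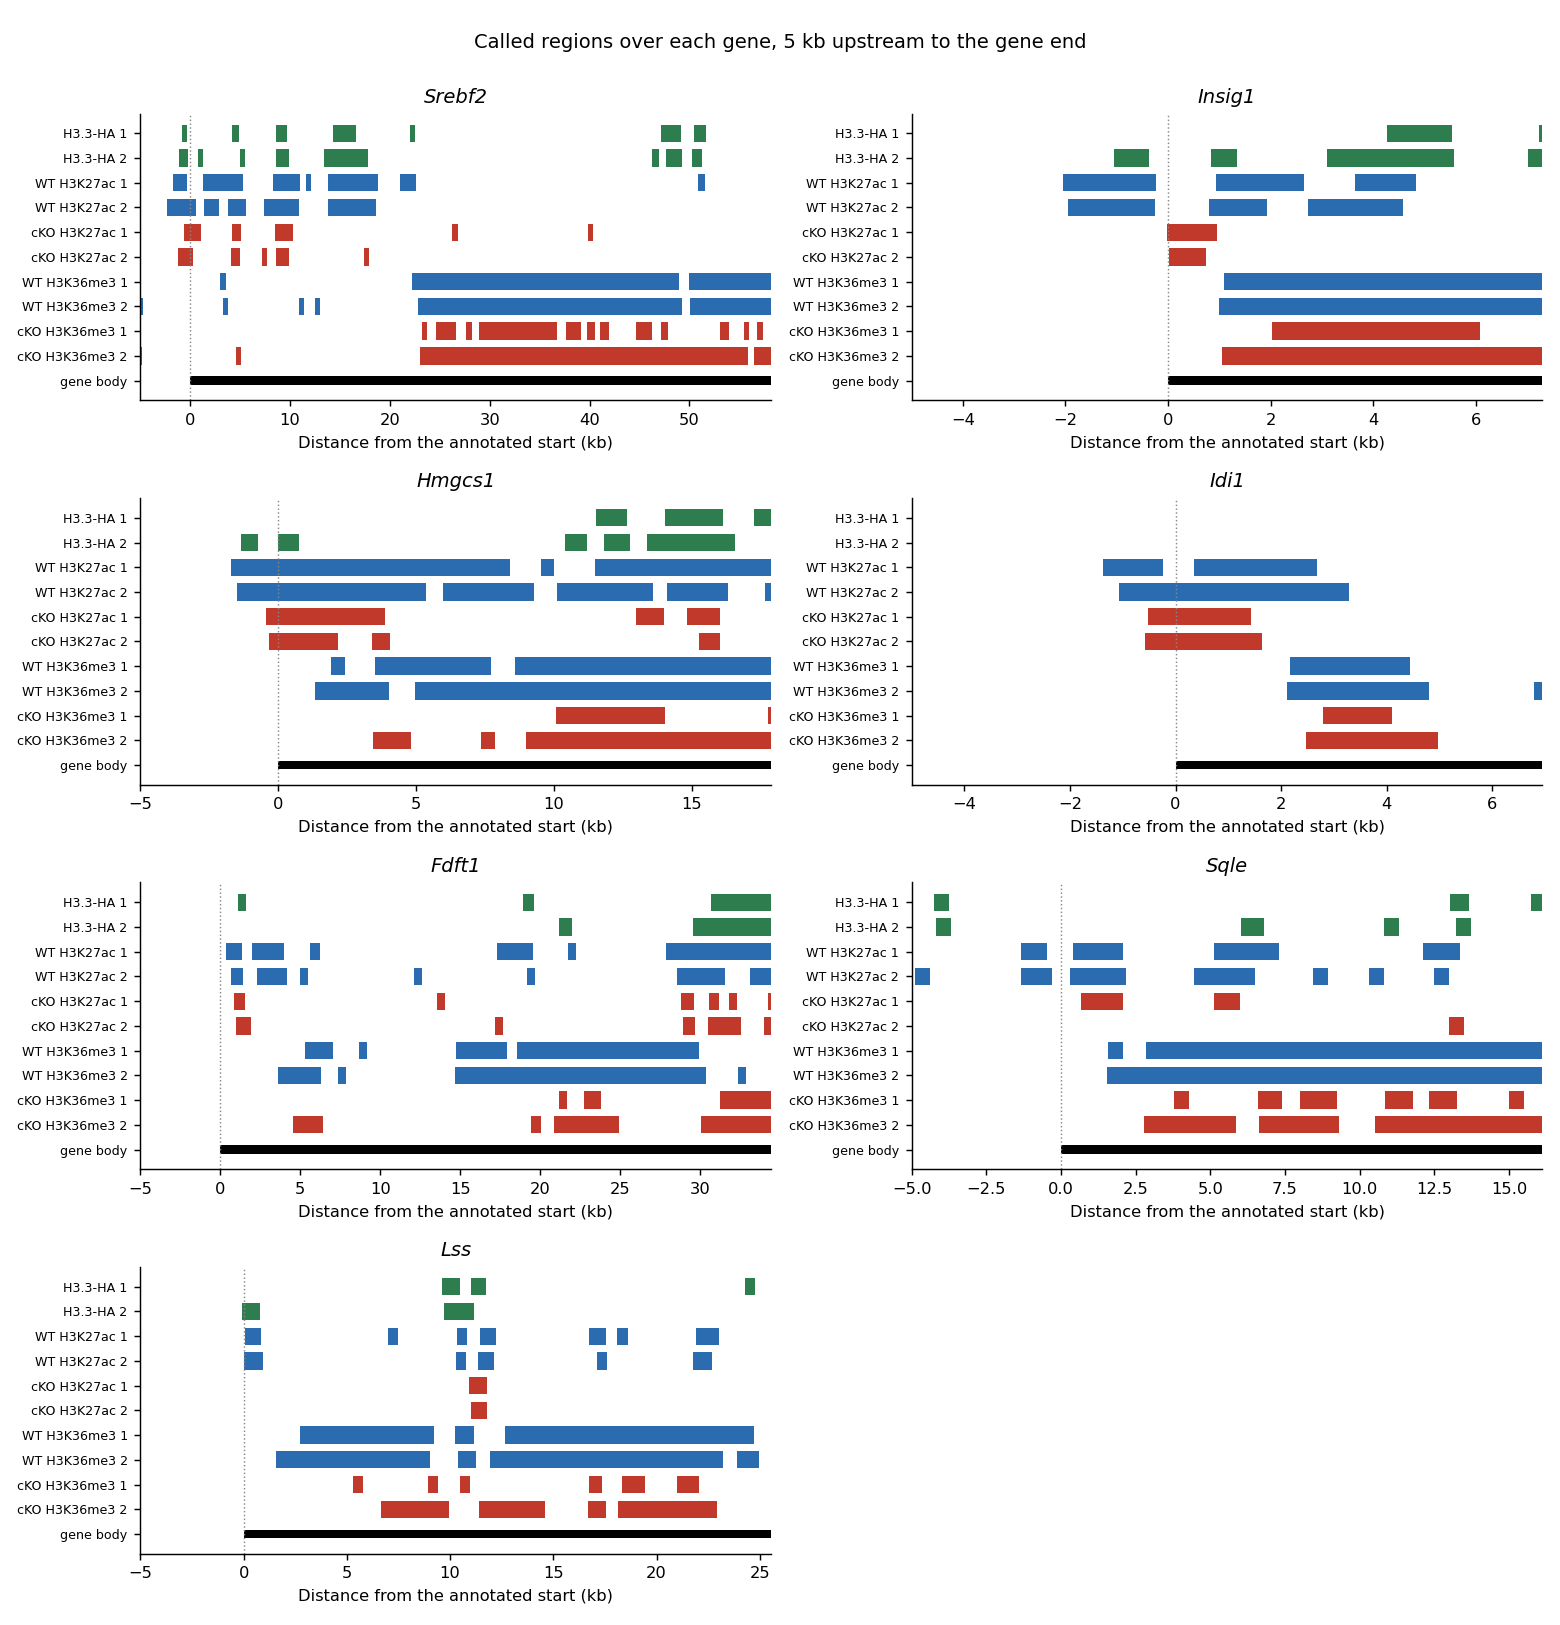
Called regions over each of the 7 genes, drawn along the distance from the annotated start in kb, from 5 kb upstream to the gene end (black bar, gene body). Each row is a library, green for H3.3-HA, blue for WT and red for cKO, with the replicate number after the mark. WT H3K27ac regions at Insig1 flank the start, and the cKO regions lie between them, almost wholly after the start. That of cKO replicate 1 reaches slightly into the WT region after the start. The H3K36me3 regions of cKO replicate 1 are broken into short pieces at Srebf2, Sqle and Lss.

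Regions of the 4 libraries of a mark were merged, and a merged region was called lost when both WT libraries and neither cKO library overlapped it. For H3K27ac, 4 of the 7 genes had a lost region, against a background of 37.3%, so the share of genes with a lost region stood apart less from the background than the coverage did. There were 8 lost regions among 40 merged regions, 4 at Lss, 2 at Insig1 and 1 each at Fdft1 and Sqle. None of the 7 genes had a gained region, called in both cKO libraries and neither WT library, where the background was 17.3%. At Srebf2, Hmgcs1 and Idi1 no whole region was lost, and the lower coverage came from narrower regions and from regions missing in some of the libraries. Of the 4 lost regions at Lss, 2 also lay in 4930483K19Rik, an antisense gene on the other strand.

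The windows were also compared by parts, with each body cut into 3 equal lengths, and the background of a part was the genes with an H3K27ac region there in any of the 4 libraries. H3K27ac coverage of the front part was lower in both cKO libraries at 7 of 7 genes, with a median over the genes of 62.0% and 51.8% in the WT libraries and 30.8% and 18.1% in cKO (background 30.5%). The middle part was lower at 6 of 7 genes (background 43.6%). In the rear part 5 of the 7 genes had any H3K27ac region, all but Insig1 and Idi1, and 4 were lower (background 45.7%). In the 5 kb upstream 5 genes had any, all but Fdft1 and Lss, and 5 were lower (background 17.8%). The median difference over the 7 genes was -26.4 percentage points in the front part, -28.5 in the middle, -12.4 in the rear and -19.5 upstream, and the parts were not tested against each other. At 1 kb before the start, 5 genes carried an H3K27ac region in each WT library, against 0 and 1 in cKO. At the start itself the order was not the same, with 1 and 3 genes in WT and 4 and 3 in cKO. At 2 kb after the start, 6 and 4 genes carried a region in WT and 2 and 1 in cKO. Over all genes the start was covered in 14.5% in each WT library and in 24.9% and 33.5% in cKO. The shares over all genes at the other 2 distances were not computed, so these counts have no background beside them.

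**Figure D3:**
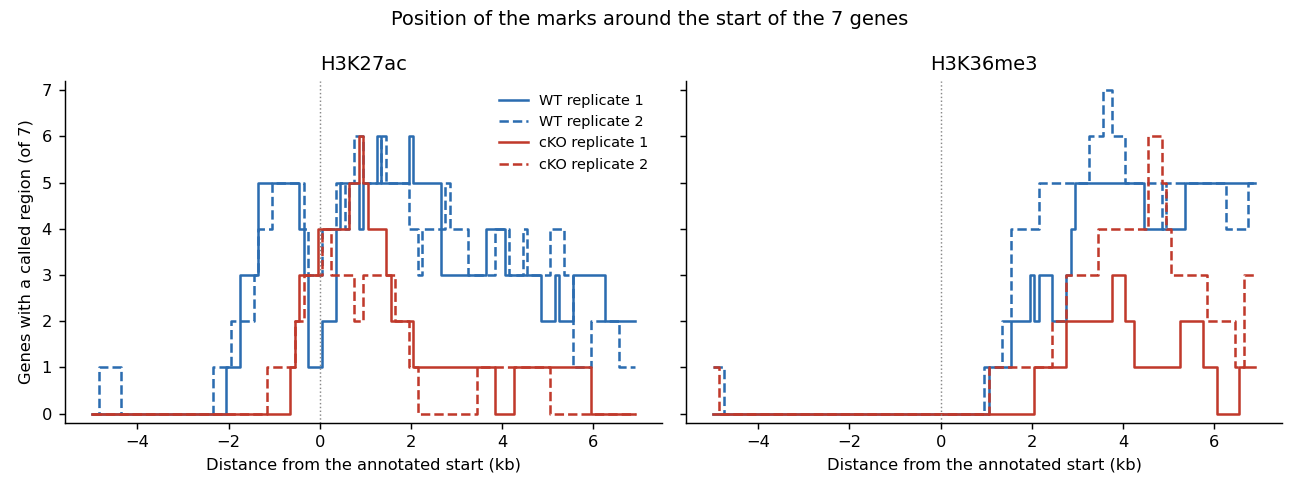
Number of the 7 genes with a called region at each distance from the annotated start (kb), for H3K27ac and H3K36me3, in WT (blue) and cKO (red), with replicate 1 solid and replicate 2 dashed. H3K27ac in cKO peaks close to the start, while WT holds shoulders on both sides of it, and H3K36me3 is absent around the start in all 4 libraries and begins after about 1 kb.

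H3K36me3 coverage was lower in both cKO libraries at 5 of the 7 genes, where 37.7% of the 11959 genes with an H3K36me3 region were lower and 7.84% were higher. These shares depend on the cKO libraries, with 41.5% higher without cKO replicate 1 and 79.9% lower without cKO replicate 2. Relative to each library's mean, 5 of the 7 were still lower, while the shares over all genes became 33.6% lower and 22.4% higher. The median difference over the 7 genes was -26.0 percentage points, from 56.9% in WT to 32.5% in cKO, against -4.99 over all genes tested. For 7145 genes the mean coverage was at least that of the lowest of the 7. Their WT median was 48.6%, their median difference was -8.82, and 36.1% of them were lower in both cKO libraries. Without cKO replicate 1 the median difference was -13.3 for the 7 genes and 0 for all genes tested. None of the 7 genes was higher in both cKO libraries. The size of the difference rests in good part on cKO replicate 1, the sparse library named above. No H3K36me3 region reached the start of any of the 7 genes in any of the 4 libraries, where 0.534% to 1.82% of all protein-coding genes had their start covered.

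At the regulators, cKO replicate 2 lay close to WT. At Srebf2, H3K36me3 coverage was 56.3% and 57.5% in WT and 29.5% and 55.8% in cKO, with a difference of -14.3 percentage points that became -1.19 without cKO replicate 1. That library held 12 separate regions over the gene, where WT held 3 and 6 and cKO replicate 2 held 4, and it kept 53.8% of the bases covered in both WT libraries, against 96.6% in cKO replicate 2. At Insig1 the values were 50.5% and 51.3% in WT and 33.0% and 50.9% in cKO. The genotypes overlapped (exact permutation p = 0.667), and the difference of -8.97 became -0.0528 without cKO replicate 1. It turned to 1.90 when coverage was set relative to each library's mean. The order of the genotypes at Insig1 therefore depended on the scale.

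Among the enzymes of the mevalonate branch, Hmgcs1 had 61.1% and 68.2% in WT and 17.8% and 47.1% in cKO, a difference of -32.1 percentage points, or -17.5 without cKO replicate 1. Its H3K36me3 regions in WT began 1918 and 1342 bases after the start, whereas in cKO they began at 10084 and 3433, deeper in the gene. Idi1 had 19.1% and 24.0% in WT and 10.9% and 20.9% in cKO. The genotypes overlapped there (exact permutation p = 0.667), and the difference of -5.64 became -0.623 without cKO replicate 1.

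The 3 enzymes from squalene to lanosterol were lower in both cKO libraries. Lss had 63.7% and 67.7% in WT and 14.0% and 39.7% in cKO, with means of 65.7% ± 2.81 and 26.9% ± 18.2 (SD, n = 2 each) and a difference of -38.9 percentage points, or -26.0 without cKO replicate 1. This was the widest H3K36me3 difference of the 7 genes, and 0.527% of all genes tested had one as low or lower. That share was 1.39% for Hmgcs1, 2.75% for Sqle and 4.31% for Fdft1. It was 21.8% for Srebf2, 36.2% for Insig1 and 47.5% for Idi1, whose differences were thus not unusual among all genes. Sqle had 65.2% and 69.1% in WT and 23.2% and 53.8% in cKO, a difference of -28.7, or -13.3 without cKO replicate 1. Fdft1 had 42.8% and 49.1% in WT and 12.1% and 27.8% in cKO, a difference of -26.0, or -18.1 without that library. At Fdft1 the regions at the 3′ end, which run on into Ctsb, were present in cKO and largely absent in WT, so that 2698 and 3582 bp of the window were covered in cKO replicates 1 and 2 and in neither WT library. Of the bases covered in both WT libraries, cKO kept 10.0% and 36.1%. For each of the 5 genes lower in both cKO libraries the exact permutation p was 0.333, the smallest that the design allows.

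A single H3K36me3 region was lost, at Srebf2, a narrow one of 814 bp (chr15:82150116-82150929) in the front part of the gene, so 1 of the 7 genes had a lost region against a background of 23.6%. None had a gained region (background 8.46%). Of the 18 merged H3K36me3 regions, 8 were present in all 4 libraries, 1 was lost and the other 9 were present in some of the libraries. The lower coverage came from shorter stretches within shared regions and from regions missing in some libraries. By parts of the body, the front part was lower in both cKO libraries at 6 of 7 genes (background 29.3%), the middle part at 5 (background 31%) and the rear part at 2 (background 35.7%). The median coverage of the rear part was 94.7% and 95.8% in WT and 35.1% and 96.9% in cKO, so the median of cKO replicate 2 lay near those of WT. The exceptions were Lss, with 90.0% and 85.2% in WT and 62.5% in cKO replicate 2, and Fdft1, with 60.7% and 68.8% in WT and 55.3% in that library. In the front part the medians were 49.4% and 59.2% in WT and 0% and 21.8% in cKO, lower in both cKO libraries.

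**Figure D4:**
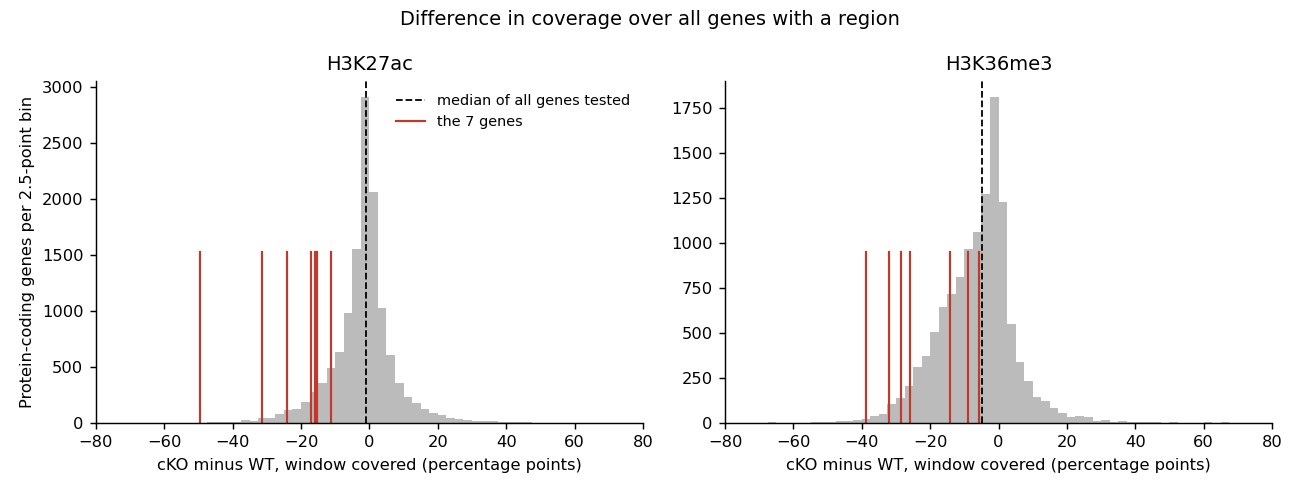
Number of protein-coding genes by the difference in mean window coverage, cKO minus WT (percentage points), over all genes with a region of the mark in any of 4 libraries, with the 7 genes as red lines and the median of all genes dashed. For H3K27ac all 7 lines lie left of the dashed line at -1.01, from -49.4 to -11.3, and for H3K36me3 they run from -38.9 to -5.64, with the median of all genes at -4.99.

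H3.3-HA regions were present in both H3.3-HA libraries at 6 of the 7 genes, where 44.1% of all protein-coding genes, and 77.9% of those with a region in either library, had one in both. Hmgcs1 was covered at 16.9% and 27.6%, Insig1 at 10.9% and 31.9% and Srebf2 at 13.0% and 17.1%. These were the 3 highest means of the 7 genes, although the libraries lay far apart at Insig1. Fdft1 was covered at 12.6% and 14.4%, most of it a region of 14098 and 15996 bp at the 3′ end that it shares with Ctsb. Sqle was covered at 7.26% and 10.8% and Lss at 6.97% and 7.77%. Idi1 had no H3.3-HA region in either library, and its H3K27ac and H3K36me3 differences were nonetheless in the direction of the others, with overlap for H3K36me3. H3.3-HA regions covered the annotated start of 0 genes in replicate 1 and of 2, Hmgcs1 and Lss, in replicate 2, against 4.69% and 10.1% of all protein-coding genes. At Hmgcs1, the bases under H3.3-HA in both libraries lay to 97.3% under H3K27ac and to 100% under H3K36me3 of both WT libraries, which covered 60.3% and 57.0% of the window. At Sqle these bases, 884 in all, lay to 0% under H3K27ac and to 50.9% under H3K36me3. The marks covered 20.8% and 65.2% of the window there. For H3K27ac, the share also lay below that of the window at Insig1 (23.6% against 29.7%). It lay above at Srebf2 (63.8% against 18.6%), Fdft1 (58.8% against 18.1%) and Lss (15.0% against 10.1%). For H3K36me3 it lay above at Insig1 and below at Srebf2, Fdft1 and Lss. The H3.3-HA cells were a separate knock-in line, so this sets regions of different animals side by side.

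Srebf2 is host to Mir33 (chr15:82198122-82198190, plus strand), whose products repress cholesterol efflux genes such as Abca1. The mature sequences, from RefSeq (GRCm38.p6), are shown with the seed (bases 2 to 8) in capitals.
mmu-miR-33-5p: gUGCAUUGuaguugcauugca
mmu-miR-33-3p: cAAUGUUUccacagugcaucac
The hairpin lay wholly under an H3.3-HA region in both libraries and wholly under an H3K36me3 region in both WT libraries and in cKO replicate 2. In cKO replicate 1 it carried none. An H3K27ac region covered it in WT replicate 1 alone of the 4 libraries. A called region over the hairpin cannot be told apart from one over the Srebf2 gene body.

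The other 30 genes of a sterol pathway list were less uniform in direction. For H3K27ac, 29 had a region in any library, of which 16 were lower in both cKO libraries, 2 were higher and 11 overlapped. Of all genes tested, 38.2% were lower and 17.4% were higher. The count of lower genes was 10 with only regions of at least 1 kb and 10 with lists of equal length. The shares over all genes were then 34.8% and 31.3%. Set against the 29 genes, these counts lay near those shares, though fewer of the 29 may have held a region under these settings. Srebf1, which encodes the SREBP that acts mainly on fatty acid synthesis, had the widest difference of the list, from 49.4% and 39.1% in WT to 9.27% and 15.8% in cKO. Lipa, the gene of lysosomal acid lipase, which frees cholesterol from ingested lipoproteins, had 69.6% and 63.9% in WT and 41.0% and 44.4% in cKO. The 2 higher genes were Mvd and Dhcr7, named after their values were seen, both with low coverage of at most 8.22% in any library.

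For H3K36me3, 19 of the 30 genes were lower in both cKO libraries, 2 were higher and 9 overlapped, with 19 lower and 6 higher relative to each library's mean. Without cKO replicate 1, 8 were higher, beside 41.5% of all genes tested. Of the 9 enzymes after squalene 8 were lower, against 4 of the 7 of the mevalonate branch, 4 of 6 regulators and 3 of 8 genes of uptake and lysosomal release, beside 37.7% of all genes tested. With so few genes in each group, these counts are a description and the groups were not tested against each other. Cyp51, the gene of lanosterol demethylase, had 73.1% and 73.4% in WT and 13.0% and 55.5% in cKO, a difference of -39.0 percentage points that became -17.7 without cKO replicate 1. Hsd17b7, the gene of a sterol ketoreductase, had 24.9% and 39.3% in WT and no called region in either cKO library. Lipa went the other way for this mark, with 55.3% and 68.7% in WT and 85.2% and 85.5% in cKO, and so did Npc2, a lysosomal cholesterol carrier, named after its values were seen, with 45.7% and 53.8% in WT and 77.1% and 73.8% in cKO. Without cKO replicate 1 the differences of Lipa and Npc2 were 23.6 and 24.1 percentage points. At Lipa the marks thus differed in direction, H3K27ac lower and H3K36me3 higher in both cKO libraries.

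**Figure D5:**
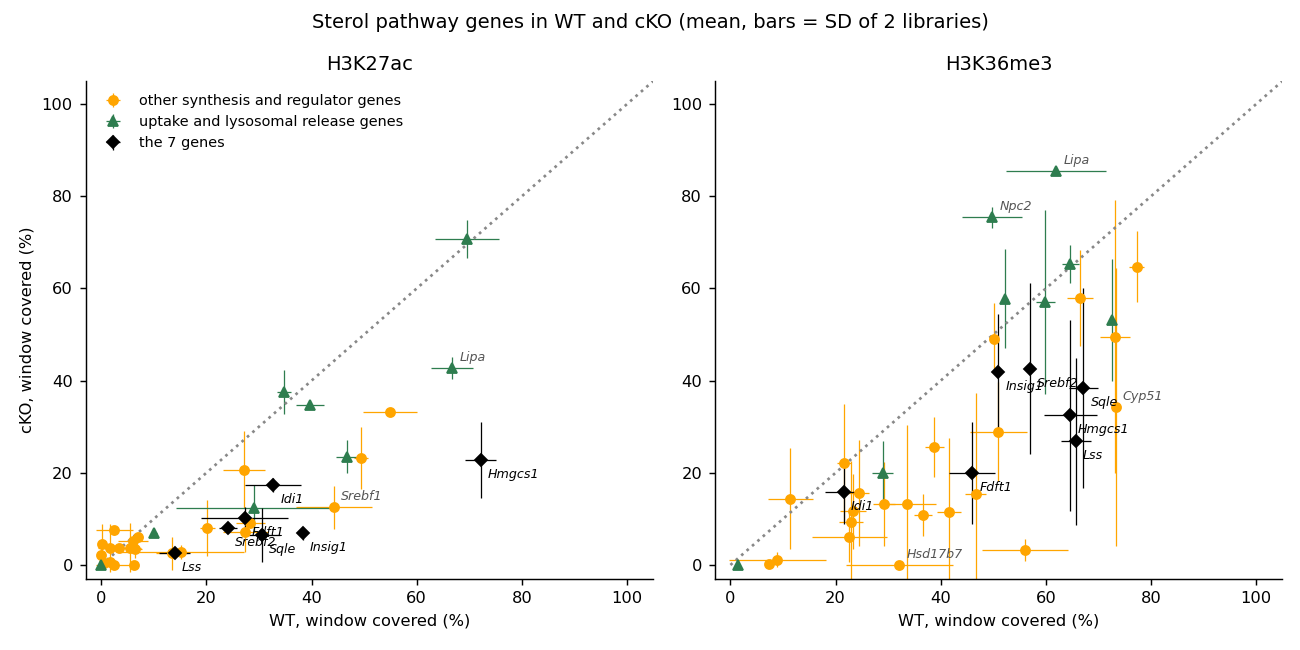
Mean window coverage in WT (x axis, %) and cKO (y axis, %) for the 7 genes (black diamonds) and the other genes of the sterol pathway list (orange circles, and green triangles for uptake and lysosomal release), with bars for the SD of 2 libraries and a dotted line of equal coverage. The 7 genes lie below the line in both panels, and Lipa and Npc2 lie above it for H3K36me3.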

How the data were processed

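CUT & RUN libraries of BMDMs were used, 2 per group. Per the methods, the authors aligned paired-end reads to mm10 with Bowtie2 and called regions with HOMER. The deposited lists are 1 per library. Per the file headers, regions needed 4-fold enrichment over IgG with a Poisson p of 1e-04. The deposited lists give start and end positions in bp, and the deposited score column is constant and was not used. Coverage was computed with Python 3.11.15, numpy 2.4.6 and pandas 2.3.3 from regions on chromosomes 1 to 19, X and Y, with genes from GENCODE M21. Code was tested on simulated data. WT and cKO were compared gene by gene with a two-sided exact permutation test. Regions were merged across the 4 lists of a mark when they overlapped or adjoined, and an overlap of 1 bp counted as presence.

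The 7 genes and the lists were chosen with earlier results of these data known. Besides the 7 genes and their overlapping neighbours, the text names for each mark the 3 genes of the pathway list with the widest non-overlapping difference, and the 3 genes of the annotation nearest to the median profile of the 7 genes. Some genes that this rule also picks are not reported here. Alternatives were the window, a minimum width, lists of equal length, scaling to the library mean, leaving out each library and the replicate block.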

Additional observations from a re-analysis of the deposited data

How the results depend on the processing

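Over 7 genes and 10 alternatives, the H3K27ac difference kept its direction in 70 of 70 values and the H3K36me3 difference in 69 of 70. Many of these values could not have reversed. The replicate block changes only the p and not the difference. Leaving out a library cannot reverse a difference where WT and cKO values do not overlap. The exception to the direction was Insig1 for H3K36me3, at 1.90 relative to the library mean. With a merged region counted only where a library covers 50% of it, 7 genes had a lost H3K27ac region and 3 a lost H3K36me3 region, beside 42.6% and 29.8% of all genes tested. With 20 kb added on both sides, 2 had a lost H3K36me3 region (29.0% of all genes). Leaving out 1 library gave 0 to 2 genes with a gained H3K27ac region, 1 without cKO replicate 1 and 2 without cKO replicate 2, where the shares over all genes were 46.5% and 39.8%. It gave 2 to 4 genes with a lost H3K36me3 region, 3 without WT replicate 1, 4 without WT replicate 2, 2 without cKO replicate 1 and 3 without cKO replicate 2, where the shares were 42.8%, 40.9%, 25.8% and 43.7%. It gave 0 to 1 with a gained one, 1 without cKO replicate 1 (share 33.0%). With 1 library left in a group these calls are less strict by construction. With regions of at least 1 kb, 6 genes had lower H3K27ac, Lss being the exception.

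The labels do not say whether same-numbered libraries were paired. Across genes, same-numbered libraries deviated together with r = -0.100 for H3K27ac and 0.105 for H3K36me3, which with 2 libraries a group does not settle it. With the replicate block, 7 genes were lower for H3K27ac and 7 for H3K36me3, where 40.7% and 47.1% of all genes tested were, and the smallest exact sign-flip p was 0.5. Differences in coverage were those given in the report. Counts of higher genes stayed at 0 under the block. The background of genes with at least the lowest mean coverage of the 7, and the alternatives for the shares of all genes, for parts of the gene and for the pathway list, were added after seeing the data. The lists hold no heights or reads per region, so depth limits which weak regions could be called, and with 2 libraries a group no single gene could pass 0.05.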

Other observations

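Among all other protein-coding genes, the 3 whose coverage in the 8 mark libraries lay nearest to the median profile of the 7 genes (Euclidean distance in percentage points, as a description over 8 values of 2 marks) were Atp5j2 at 10.4, Trappc12 at 12.2 and Herc3 at 12.2. Atp5j2 encodes a subunit of the mitochondrial ATP synthase and Trappc12 a subunit of a vesicle tethering complex. Of the 7 genes themselves, Sqle lay at 17.7, Srebf2 at 18.0 and Insig1 at 20.9, and Hmgcs1 was the farthest at 63.7, followed by Idi1 at 58.7. Atp5j2 had H3K27ac coverage of 30.8% and 29.2% in WT and 12.4% and 14.6% in cKO, and H3K36me3 coverage of 51.6% and 57.2% in WT and 19.2% and 48.9% in cKO.

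Other annotated genes overlap the windows of the 7 genes, and a region there cannot be assigned to one strand. They are Ccdc134 by 23 bp, Gm49502 and Mir33 at Srebf2, Gm26608 upstream of Insig1, the antisense gene Gm48342 at Hmgcs1, Gm48574 at the start of Idi1, Ctsb and Neil2 at Fdft1, the pseudogene Zfp572 upstream of Sqle and the antisense gene 4930483K19Rik at Lss.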
